A study of Mus musculus with 6 samples.

Results

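The genes of cholesterol synthesis, uptake and efflux were followed through 3 groups of mouse ovarian granulosa cells. The set was written out by role from the textbook pathway. It listed 31 genes, of which 18 were enzymes of synthesis, 5 were regulators and 8 served uptake, storage and efflux. Of these, 28 were measured, among 18193 genes in all: 17 enzymes, 5 regulators and 6 genes of uptake, storage and efflux. Acat2, Soat1 and Nr1h2 were not analysed here.

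Granulosa cells surround the oocyte in the ovarian follicle. Total RNA from 6 samples was measured on 1 Affymetrix array each, with 2 arrays per group, and every animal had a mixed FVB and C57BL/6 background. Wild-type cells were taken at day 25. The other 2 groups, at day 25 and at 2 months, carried the genotype Foxo1 f/-;Foxo3 f/- with Amhr2-cre, called dKO from here on. Cre was driven by Amhr2, the gene of the anti-Müllerian hormone receptor, which granulosa cells express, and the wild type has no Cre in its label, so the effects of Cre and of the deleted genes cannot be told apart. Wild-type cells at 2 months were not analysed here, so a difference between dKO at 2 months and wild type at day 25 holds both genotype and age. The labels do not say whether replicates came from separate animals, so the p-values rest on a spread between samples that may be no more than technical.

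Cholesterol is built in the cell from acetyl-CoA through mevalonate and squalene, and its level is kept by SREBP transcription factors. When membrane sterol is low, SCAP carries SREBP out of the endoplasmic reticulum and the genes of synthesis and of lipoprotein uptake are switched on. When sterol is high, INSIG proteins hold SCAP back, and LXR receptors, which bind oxysterols, switch on the export pumps ABCA1 and ABCG1. Granulosa cells need cholesterol for membranes while the follicle grows, and after ovulation their luteal descendants need it as the substrate of progesterone.

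The label check gave Foxo1 intensities of 10319 and 7666 for wild type, of 904 and 2291 for dKO at day 25 and of 126 and 343 for dKO at 2 months. Foxo3 had 1632 and 1342, then 2539 and 3279, then 2484 and 1872, so it was higher on the dKO arrays, against the label. Where its probe sets lie relative to the deleted part is not given in the sources used here, so Foxo3 does not check the genotype. Replicate 1 of dKO at 2 months stood apart, with correlations of 0.964 to 0.978 with the other 5 arrays, against 0.982 to 0.992 among those 5. Granulosa markers were present throughout (Inha, an inhibin subunit, between 26038 and 27499). Markers of other cells differed between the groups in summed intensity. For 16 leukocyte and macrophage genes it was 2204 and 4336 in wild type, 10219 and 6053 in day 25 dKO and 21097 and 6824 at 2 months. For 14 oocyte genes it was 41858 and 25624, then 59762 and 85495, then 9078 and 48203. It was 6055 and 5213, 3757 and 11077, then 22050 and 23918 for 6 theca genes, and 1029 and 1235, 1301 and 1844, then 3752 and 1965 for 10 endothelial genes. For 10 stromal genes it was 24835 and 17199, 30037 and 36901, then 50220 and 26743, and for 4 luteal genes 1012 and 1155, 1222 and 972, then 1786 and 1937.

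Across the cholesterol genes the clearest differences lay in the pair of efflux pumps, while no enzyme of synthesis differed over 2-fold between groups on its brightest probe set, from which each gene was read. Values are intensities on a linear scale, and differences are of log2(intensity + 1) with their standard error (SE). In limma 0 of the 28 genes passed an adjusted p of 0.05 in any of the 3 comparisons, as did 0 of 18193 genes (0% each time). At an unadjusted p under 0.05, dKO at day 25 against wild type had 3 cholesterol genes higher and 1 lower, beside 4.89% and 3.44% of all genes. Between the ages of dKO 1 was higher and 0 lower at 2 months, beside 3.73% and 2.91%. In dKO at 2 months 4 were higher than in wild type and 0 lower, beside 9.54% and 5.38%. Each pair of comparisons shares the arrays of 1 group, so the counts are not independent. The smallest adjusted p-values of the members were 0.474, 0.712 and 0.139 in that order.

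A second count took genes whose arrays did not overlap between the groups. At day 25 it gave 11 cholesterol genes above wild type and 2 below, where 26.4% and 19.5% of all genes did so. Of the dKO ages compared, 12 lay higher at 2 months and 1 lower, beside 19.7% and 17% of all genes. Against wild type 13 lay higher at 2 months and 2 lower, beside 26.6% and 17.3%. Means leaned upward, with 18, 20 and 21 of 28 genes higher in the 3 comparisons. The median log2 differences were 0.11, 0.15 and 0.29, beside 0.03, 0.02 and 0.04 for all genes. A difference of means over 2-fold was seen for 1, 0 and 2 members, and for 3.65%, 4.23% and 5.21% of all genes.

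**Figure D1:**
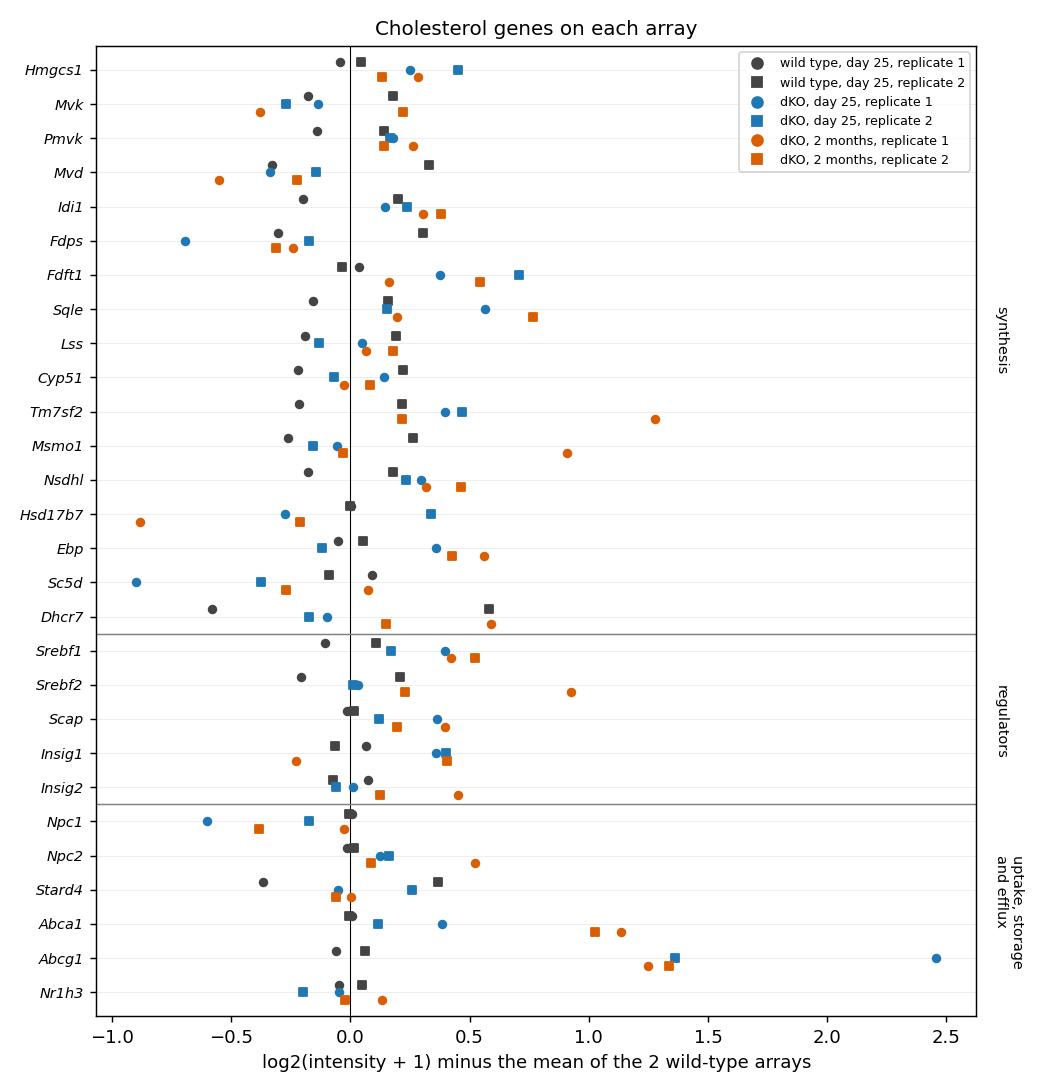
Each row is a cholesterol gene and each point 1 array, as log2(intensity + 1) minus the mean of the 2 wild-type arrays; colour gives the group and shape the replicate. Abca1 stands to the right on both 2-month arrays and Abcg1 on all 4 dKO arrays, while most enzymes of synthesis lie within 0.5 of the wild-type mean.

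Synthesis began with Hmgcs1, which makes HMG-CoA at the entry of the mevalonate route. Its intensity was 3215 and 3424 in wild type, 3940 and 4539 in day 25 dKO and 4039 and 3633 at 2 months. All 4 dKO arrays lay above both wild-type arrays. The day 25 difference was 0.35 ± 0.12 (SE), unadjusted p = 0.0372 and adjusted p = 0.587 by limma. The unadjusted p was 0.135, 0.0759 and 0.141 without wild-type replicate 1, wild-type replicate 2 and dKO day 25 replicate 2, and 0.0645 with replicate number as a block. The other 4 probe sets of Hmgcs1 had day 25 differences of 0.04 to 0.22, and with cross-hybridizing probe sets left out the difference was 0.19, unadjusted p = 0.208.

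The promoter of Hmgcs1 is printed because it was the single one, among the cholesterol genes with a RefSeq promoter, that held the classical sterol regulatory element bound by SREBP; that of Abca1 is printed because Abca1 had the smallest p of the set. Both are RefSeq sequences of GRCm38.p6, from 250 bases before to 50 after the start site, 5′ to 3′ on the gene's strand. Capitals mark matches on either strand to TCACNCCAC (the sterol regulatory element), CCAAT (the NF-Y box) and GGGCGG (the GC box bound by SP1).
Hmgcs1, chr13:119690101-119690400, plus strand: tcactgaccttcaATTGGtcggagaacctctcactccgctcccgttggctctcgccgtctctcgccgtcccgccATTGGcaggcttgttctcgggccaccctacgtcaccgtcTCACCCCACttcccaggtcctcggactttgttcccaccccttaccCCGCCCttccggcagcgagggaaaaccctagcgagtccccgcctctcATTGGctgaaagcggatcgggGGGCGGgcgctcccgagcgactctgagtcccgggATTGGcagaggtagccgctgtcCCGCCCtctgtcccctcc
Abca1, chr4:53159846-53160145, minus strand: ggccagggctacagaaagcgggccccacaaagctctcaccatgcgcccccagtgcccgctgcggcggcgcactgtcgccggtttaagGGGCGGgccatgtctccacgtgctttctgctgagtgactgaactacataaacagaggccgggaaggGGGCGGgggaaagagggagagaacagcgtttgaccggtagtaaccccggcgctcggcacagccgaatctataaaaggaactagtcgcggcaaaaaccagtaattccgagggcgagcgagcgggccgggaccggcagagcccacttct
The Hmgcs1 window held 1 sterol element, 4 CCAAT boxes and 3 GC boxes, and that of Abca1 held 2 GC boxes. Of 22 measured members with an entry (all but Abcg1, Fdft1, Fdps, Npc1, Sqle and Stard4), 1 held the sterol element, 19 a CCAAT box and 20 a GC box. Among 27025 genes the shares were 1.44%, 41.1% and 38.2%, counting a gene with several promoters once. All 14 synthesis genes with a promoter had a CCAAT box. The forkhead motif GTAAACA was in 0 of the 22, and in 4.05% of genes. No matches overlap in the printed windows, and a match is a run of letters, not a measured binding site.

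The enzymes from mevalonate to farnesyl diphosphate had no call in any comparison. Mvk, mevalonate kinase, ranged from 245 to 372 over the 6 arrays, and Pmvk, which adds the next phosphate, from 316 to 419. Mvd, the decarboxylase that yields isopentenyl diphosphate, ranged from 124 to 229. Idi1, which isomerises that product, was 369 and 488 in wild type and reached 524 and 552 in dKO at 2 months, a difference of 0.34 ± 0.16 (SE). Fdps, which joins the isoprene units to farnesyl diphosphate, ranged from 1129 to 2255, with its highest value on a wild-type array.

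Fdft1, squalene synthase, is the step that commits the route to sterols. It was 2563 and 2443 in wild type, 3250 and 4087 in day 25 dKO and 2803 and 3643 at 2 months. All dKO arrays again lay above the wild-type arrays. The day 25 difference of 0.54 ± 0.18 (SE) had an unadjusted p of 0.0336 and an adjusted p of 0.581 by limma. The unadjusted p was 0.103, 0.135 and 0.156 without wild-type replicate 1, wild-type replicate 2 and dKO day 25 replicate 2, and 0.0859 with cross-hybridizing probe sets left out. Averaged over its probe sets the difference was 0.28, unadjusted p = 0.127. Of its other 3 probe sets, 2 had higher day 25 means (0.44 and 0.32) and 1 a lower one (-0.20). Sqle, squalene epoxidase, was 991 and 1231 in wild type and between 1230 and 1881 on the dKO arrays. Lss, which closes squalene epoxide to lanosterol, ranged from 249 to 324 on a probe set that can cross-hybridize. A dimmer Lss probe set read 92 and 122 in wild type and 131 and 137 in day 25 dKO. At 2 months it read 190 and 147. The difference between 2 months and wild type was 0.65 ± 0.20 (SE), unadjusted p = 0.0222 and adjusted p = 0.330 by limma. The dimmest Lss probe set went the other way in that comparison, by -0.20 ± 0.13 (SE), unadjusted p = 0.177 by limma.

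The enzymes that trim lanosterol to cholesterol went in both directions. Cyp51, the lanosterol demethylase, had means of 459 ± 99.0 in wild type, then 466.5 ± 47.4 and 462.5 ± 24.8 in dKO at day 25 and 2 months (SD, n = 2 each). Tm7sf2, a sterol reductase, and Msmo1, the methyl sterol oxidase, were highest on replicate 1 of dKO at 2 months, at 473 and 3370, against 226 and 1756 on replicate 2. Nsdhl, a dehydrogenase that removes a carboxyl group from the sterol ring, was 479 and 612 in wild type, 665 and 636 in day 25 dKO and 674 and 747 at 2 months. Hsd17b7, which reduces the ketone that this step leaves, had a lower mean at 2 months (471 and 752) than in wild type (872 and 869), a difference of -0.55 ± 0.31 (SE) with an unadjusted p of 0.135 by limma. Of the 3 dimmer probe sets of Hsd17b7, 2 differed by -1.09 and -0.78 in that comparison (unadjusted p = 0.00725 and 0.0280, adjusted p = 0.260 and 0.344 by limma) and the dimmest by 0.02.

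Ebp, the sterol isomerase, was 1166 and 1256 in wild type, 1553 and 1114 in day 25 dKO and 1785 and 1628 at 2 months. Both 2-month arrays lay above all 4 arrays of day 25. Its difference between 2 months and wild type was 0.49 ± 0.18 (SE), unadjusted p = 0.0458 and adjusted p = 0.374 by limma. Without any 1 of the 4 arrays compared the unadjusted p was 0.0992 to 0.174.

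Sc5d, the lathosterol desaturase, was the 1 enzyme that was lower at day 25 with an unadjusted p under 0.05. It was 1594 and 1403 in wild type, 802 and 1154 in day 25 dKO and 1576 and 1239 at 2 months. The day 25 dKO arrays lay below all others. The difference from wild type was -0.64 ± 0.23 (SE), unadjusted p = 0.0398 and adjusted p = 0.595 by limma, and it was -0.37 without dKO day 25 replicate 1. The unadjusted p was 0.173, 0.0951 and 0.164 without wild-type replicate 1, wild-type replicate 2 and dKO day 25 replicate 1, 0.0744 with replicate number as a block and 0.177 averaged over probe sets. A second Sc5d probe set read 490 and 625, then 441 and 548, then 1213 and 850, so its day 25 difference was -0.17 and its difference between the dKO ages was 1.05. Dhcr7, the reductase of the last step, spread widely in wild type itself, at 730 and 1634.

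Over the 17 enzymes, 10 had a higher mean and 7 a lower one in dKO at day 25 than in wild type. The median difference was 0.04, and at an unadjusted p under 0.05 there were 2 higher and 1 lower. At 2 months against day 25 in the dKO the median was 0.13, with 12 higher and 5 lower means and 0 enzymes at that p. For 2 months against wild type it was 0.21, again with 12 higher and 5 lower means, and 1 enzyme at that p. In none of the 3 comparisons did an enzyme differ over 2-fold on its brightest probe set, although Sc5d and Hsd17b7 each did so on a dimmer one. The day 25 median was -0.01 without wild-type replicate 1 and 0.26 without wild-type replicate 2, and it was -0.07 without dKO day 25 replicate 1, so the sign of this small median rested on single arrays.

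**Figure D2:**
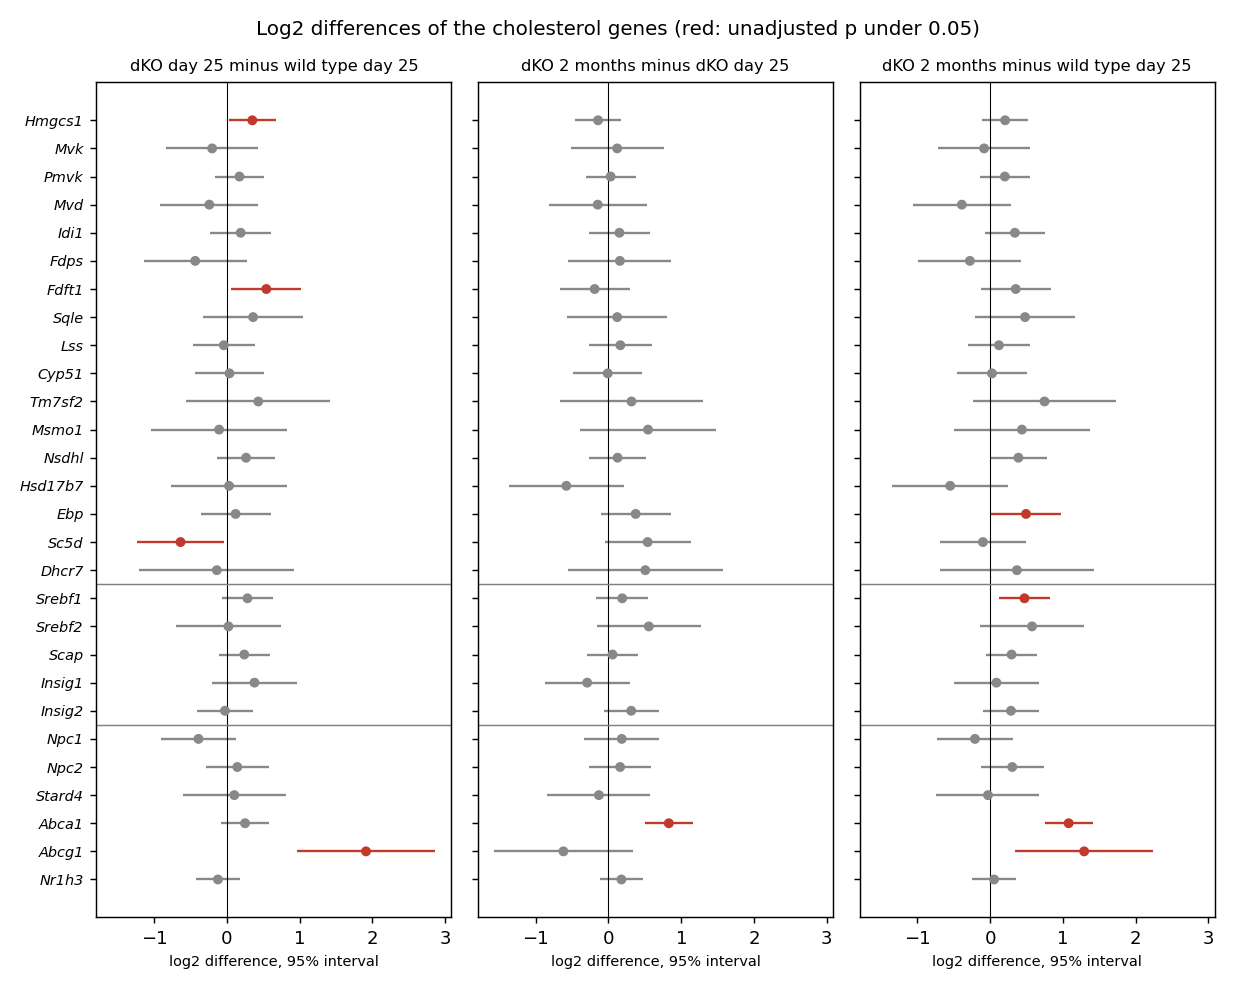
Points are log2 differences of the cholesterol genes in the 3 comparisons, bars are 95% intervals from limma, and red marks an unadjusted p under 0.05. Most intervals of the enzymes cross 0; Abcg1 reads 1.91 at day 25 and Abca1 1.08 at 2 months against wild type.

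The regulators had small differences, mostly upward. Srebf1 encodes SREBP1, which favours genes of fatty acid synthesis, and was 899 and 1045 in wild type, 1276 and 1091 in day 25 dKO and 1299 and 1394 at 2 months. Its wild-type arrays lay below all dKO arrays, and the 2-month arrays were the highest. The 2-month difference from wild type was 0.47 ± 0.14 (SE), unadjusted p = 0.0191 and adjusted p = 0.320 by limma, and the unadjusted p was 0.0882 without wild-type replicate 1 and 0.0778 without dKO 2-month replicate 2. Srebf2, whose product SREBP2 drives cholesterol synthesis, was 416 and 556 in wild type, 492 and 485 in day 25 dKO, and 915 and 563 at 2 months. Its 2-month replicates spread more widely than those of either other group.

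Scap, the escort of SREBP, was 6633 and 6754 in wild type, 8601 and 7264 in day 25 dKO and 8804 and 7665 at 2 months, so that every dKO array lay above wild type. The differences from wild type were 0.24 ± 0.13 and 0.30 ± 0.13 (SE), unadjusted p = 0.134 and 0.0796 by limma. A much dimmer Scap probe set, at 61 to 106 over the arrays, went the other way, by -0.13 and -0.24. Averaged over its probe sets Scap differed by 0.05 and 0.03. Insig1, the anchor that SREBP itself induces, was 2026 and 1854 in wild type and 2483 and 2561 in day 25 dKO, a difference of 0.38 ± 0.23 (SE), while its 2-month arrays read 1654 and 2564. Insig2, a second anchor, ranged from 481 to 692. The median differences of the 5 regulators were 0.24, 0.19 and 0.30 for day 25 against wild type, 2 months against day 25, and 2 months against wild type. At an unadjusted p under 0.05 the counts were 0, 0 and 1.

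Efflux held the members with the largest differences. Abcg1, a pump that passes cholesterol to HDL, was 210 and 229 in wild type, 1210 and 566 in day 25 dKO and 522 and 556 at 2 months. The 4 dKO arrays lay above both wild-type arrays, and replicate 1 of day 25 was far above the rest. Means were 219.5 ± 13.4, 888 ± 455 and 539 ± 24.0 (SD, n = 2 each). The day 25 difference was 1.91 ± 0.37 (SE), or 3.76-fold, with a 95% interval of 0.96 to 2.86, unadjusted p = 0.00375 and adjusted p = 0.474 by limma. It ranked 50 from the top of 18193 genes. Without replicate 1 of dKO at day 25 it was 1.36 and without replicate 2 it was 2.46. The 2-month difference from wild type was 1.29 ± 0.37 (SE), unadjusted p = 0.0176 and adjusted p = 0.314, and the unadjusted p was 0.0761 to 0.0952 without any 1 of the 4 arrays compared. Between the dKO ages the difference was -0.62 ± 0.37 (SE), and -0.07 without replicate 1 of day 25. The second Abcg1 probe set, dimmer at 36 and 40, then 111 and 57, then 73 and 57, had the same order of groups.

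Abca1, the pump that loads cholesterol onto apolipoprotein A-I, was 2555 and 2526 in wild type, 3314 and 2756 in day 25 dKO and 5577 and 5172 at 2 months. The 3 groups did not overlap, and the 2-month arrays were the highest by a wide margin. Means were 2540.5 ± 20.5, 3035 ± 395 and 5374.5 ± 286 (SD, n = 2 each). The day 25 difference was 0.25 ± 0.13 (SE), unadjusted p = 0.107. Between the dKO ages it was 0.83 ± 0.13 (SE), or 1.78-fold, with a 95% interval of 0.50 to 1.16, unadjusted p = 0.00141 and adjusted p = 0.712 by limma. At 2 months it stood 2.11-fold above wild type, with a difference of 1.08 ± 0.13 (SE), a 95% interval of 0.75 to 1.41, unadjusted p = 0.000431 and adjusted p = 0.139. Leaving out any 1 array left the age difference between 0.70 and 0.96 and the difference from wild type between 1.03 and 1.13. The other 2 Abca1 probe sets, at 45 and 43 and at 17 and 18 in wild type, differed between the dKO ages by 0.99 and 0.80.

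**Figure D3:**
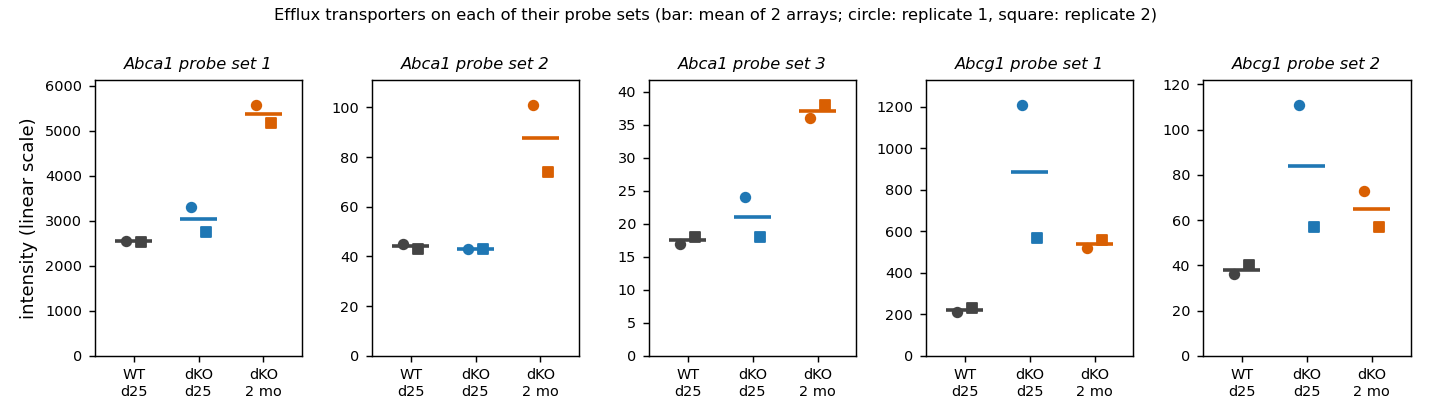
Intensity of the efflux pumps on each of their probe sets, brightest first, on a linear scale from 0; points are arrays (circle replicate 1, square replicate 2) and bars the mean of 2 arrays. Each Abca1 probe set is highest at 2 months, and both Abcg1 probe sets are highest on replicate 1 of dKO at day 25.

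Both pumps are also made by macrophages, and leukocyte markers differed along with them. All 16 markers had their highest value on replicate 1 of dKO at 2 months, and 15, 16 and 16 of 16 had a higher mean in the 3 comparisons. None was listed at 0. The summed marker intensity was 21097 on that array, against 6824 on replicate 2, while Abcg1 read 522 and 556 and Abca1 5577 and 5172 on the same pair. Abca1 read 5172 on replicate 2 of 2 months, where the markers summed to 6824, and 3314 on replicate 1 of dKO at day 25, where they summed to 10219. Without replicate 1 of 2 months the age difference of Abca1 was 0.77. In dKO at day 25 the higher Abcg1 value, 1210, was on the array with the higher marker sum, and wild-type arrays had the lowest sums and the lowest Abcg1. The summed theca, luteal and endothelial markers were also higher at 2 months, as Abca1 was. On the 2-month arrays the 6 theca genes summed to 22050 and 23918, against 3757 to 11077 on the arrays of day 25. Most of the 2-month sums came from Cyp17a1, at 12804 and 15028, and Cyp11a1, at 6064 and 5803. The 4 luteal genes summed to 1786 and 1937, against 972 to 1222. For the 10 endothelial genes the sums were 3752 and 1965, against 1029 to 1844. All 10 endothelial genes had a higher mean in each of the 3 comparisons. The mean was higher at 2 months than in dKO at day 25 for 3 of the 6 theca genes. Of the luteal genes, Sfrp4 and Parm1 differed by 1.24 and 0.74 between the dKO ages, and Ptgfr and Akr1c18 by 0.01 and -0.07. Parm1 alone read 1470 and 1422 on the 2-month arrays. The part of leukocytes and of theca, luteal, endothelial and stromal cells in the differences of either pump was not tested. In bulk samples such as these, a change in the number of cells of a type and a change in RNA per cell cannot be told apart.

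**Figure D4:**
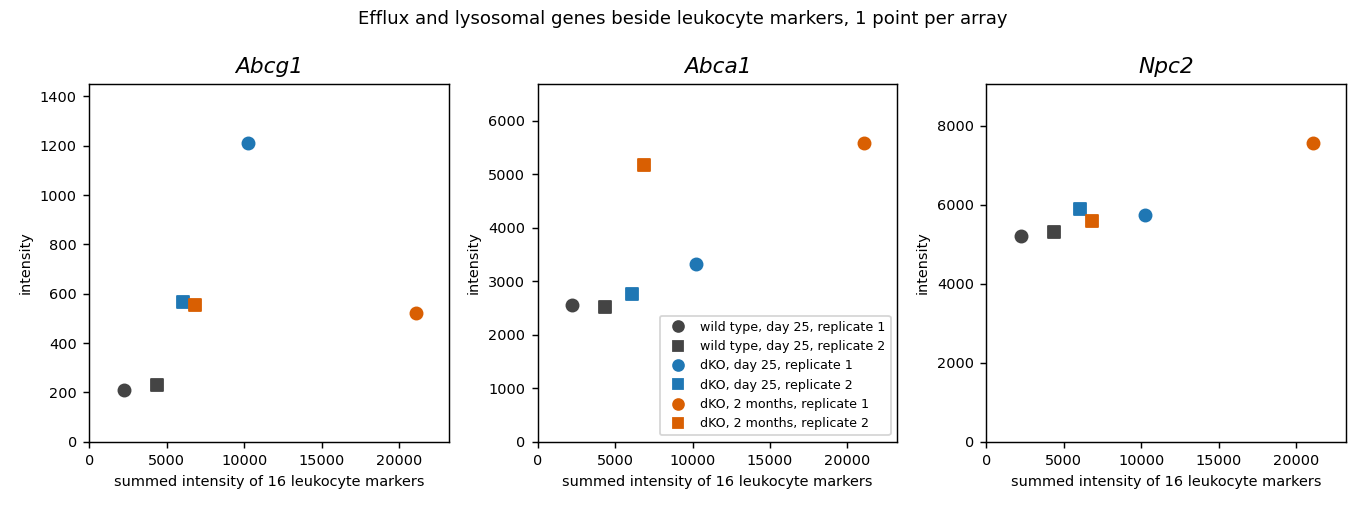
Intensity of Abcg1, Abca1 and Npc2 on each array against the summed intensity of 16 leukocyte markers, both on linear scales from 0; colour gives the group and shape the replicate. The 2-month arrays differ in marker sum (21097 and 6824) and read 522 and 556 for Abcg1 and 5577 and 5172 for Abca1, while Npc2 reads 7553 and 5581.

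Npc1, Npc2, Stard4 and Nr1h3, the other measured members of uptake, storage and efflux, had no unadjusted p under 0.05 by limma in any comparison. Soat1 was not analysed here. The receptors Scarb1 and Lrp8 and the ester-splitting Nceh1 were read with the further sterol genes below. Npc1, which lets cholesterol out of lysosomes after lipoprotein uptake, was 754 and 748 in wild type, 494 and 665 in day 25 dKO and 736 and 575 at 2 months. It was lower in dKO at day 25 by -0.39 ± 0.20 (SE) on the log2 scale, unadjusted p = 0.110 by limma. Npc2, its soluble partner in the lysosome, was 5206 and 5307, then 5734 and 5885, then 7553 and 5581. Its highest value was on the array with the most leukocyte marker signal, and the part of leukocytes in it was not tested. Stard4, a carrier of cholesterol between membranes, ranged from 155 to 259. Nr1h3, the LXR alpha receptor, ranged from 53 to 67, below the array medians of 73 to 74, so its level is known only roughly. It differed from wild type by -0.12 ± 0.12 at day 25 and 0.06 ± 0.12 at 2 months (SE).

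Set side by side, synthesis and uptake with efflux gave medians that differed by less than 0.1. At day 25 the median difference from wild type was 0.04 for the 17 enzymes and 0.12 for the 6 genes of uptake, storage and efflux. Those 6 did not include the receptors Scarb1 and Lrp8 or Nceh1, so the medians do not cover them. Between the dKO ages the medians were 0.13 and 0.17, and for 2 months against wild type they were 0.21 and 0.18. The median of synthesis minus that of uptake and efflux was -0.09, -0.04 and 0.03. Single arrays turned the sign of each gap: leaving out 1 array gave -0.21 to 0.10 at day 25, -0.22 to 0.15 between the dKO ages and -0.14 to 0.12 for 2 months against wild type. The lowest value came without dKO day 25 replicate 1 in the first case and without dKO 2-month replicate 2 in the others. The second group held the larger single differences, with 1 of 6 members at an unadjusted p under 0.05 at day 25, 1 of 6 between the ages and 2 of 6 against wild type at 2 months, all of them Abca1 or Abcg1.

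Genes around this core were read from a list of 30 further sterol genes, of which 27 were measured. At day 25 their median difference from wild type was -0.01, where 1 was higher and 4 were lower by an unadjusted p under 0.05, beside 4.89% and 3.44% of all genes. From day 25 to 2 months in the dKO the median was 0.12, with 4 higher and 0 lower, beside 3.73% and 2.91%. At 2 months against wild type it was 0.12, with 8 higher and 2 lower, beside 9.54% and 5.38%. By limma 0 passed the adjusted p in any of them. The genes named here had the smallest unadjusted p of the list in a comparison.

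Scarb1, the HDL receptor that takes up cholesteryl esters, was 5185 and 4599 in wild type, 3355 and 3718 in day 25 dKO and 7033 and 8091 at 2 months. It was the lowest in dKO at day 25 and the highest at 2 months, with no overlap between any groups. The differences were -0.47 ± 0.13, 1.09 ± 0.13 and 0.63 ± 0.13 (SE) for day 25 against wild type, 2 months against day 25, and 2 months against wild type, with adjusted p-values of 0.544, 0.712 and 0.246 by limma. Its other 2 probe sets gave -0.43 and -0.39, 1.04 and 1.12, and 0.62 and 0.74. Lrp8, a receptor of the LDL receptor family, was 396 and 427 in wild type, 96 and 156 in day 25 dKO and 104 and 237 at 2 months. All 4 dKO arrays lay below wild type, by -1.74 ± 0.45 at day 25 and -1.38 ± 0.45 at 2 months (SE), adjusted p = 0.515 and 0.346 by limma. A second Lrp8 probe set gave -2.16 and -1.68. The dimmest, at 25 to 38 over the arrays, gave -0.34 and -0.27, and its 2-month arrays overlapped wild type.

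Nceh1, which splits cholesteryl esters, was 1184 and 1446 in wild type, 758 and 902 in day 25 dKO and 831 and 592 at 2 months, a 2-month difference of -0.90 ± 0.22 (SE) with adjusted p = 0.276 by limma. Its other 2 probe sets gave -0.43 and -0.74 in that comparison, and -0.02 and 0.04 at day 25. Acat1, which makes acetoacetyl-CoA, was 2455 and 2504 in wild type and between 3172 and 3850 on all dKO arrays, 0.41 ± 0.12 higher at day 25 and 0.51 ± 0.12 at 2 months (SE), adjusted p = 0.555 and 0.270 by limma. Acly, which supplies cytosolic acetyl-CoA, was 2945 and 3534 in wild type, 2191 and 2547 in day 25 dKO and 2869 and 3090 at 2 months. It was lowest in dKO at day 25, by -0.45 ± 0.14 (SE), adjusted p = 0.565.

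Star, Fdx1 and Cyp11a1, which serve the making of steroids from cholesterol, were with Scarb1 the 4 of smallest p between the dKO ages. Star, which brings cholesterol to the inner mitochondrial membrane, was 138 and 94 in wild type, 44 and 109 in day 25 dKO and 449 and 770 at 2 months. The 2-month arrays lay far above the others, 3.07 ± 0.52 above dKO at day 25 and 2.36 ± 0.52 above wild type (SE), adjusted p = 0.712 and 0.259 by limma. Its other 2 probe sets gave 2.14 and 3.36 between the ages. Fdx1, the ferredoxin of mitochondrial steroid enzymes, was 3527 and 4063, then 2169 and 3781, then 8184 and 7851, an age difference of 1.48 ± 0.28 (SE). Cyp11a1, which cuts the cholesterol side chain, was 653 and 1597, then 918 and 2832, then 6064 and 5803, an age difference of 1.88 ± 0.67 (SE). Its other 2 probe sets, at 12 to 36 in wild type, had differences of -0.24 and -0.06 between the ages, opposite in sign. Theca cells express Star and Cyp11a1 as well, and Cyp17a1, a theca enzyme, was 1275 and 1509, then 389 and 5073, then 12804 and 15028. Ptch1, Gli1 and Hhip, also on the theca list, went the other way between the dKO ages, by -0.09, -0.24 and -0.58. The part of theca cells in the differences of Star, Fdx1 and Cyp11a1 was not tested.

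**Figure D5:**
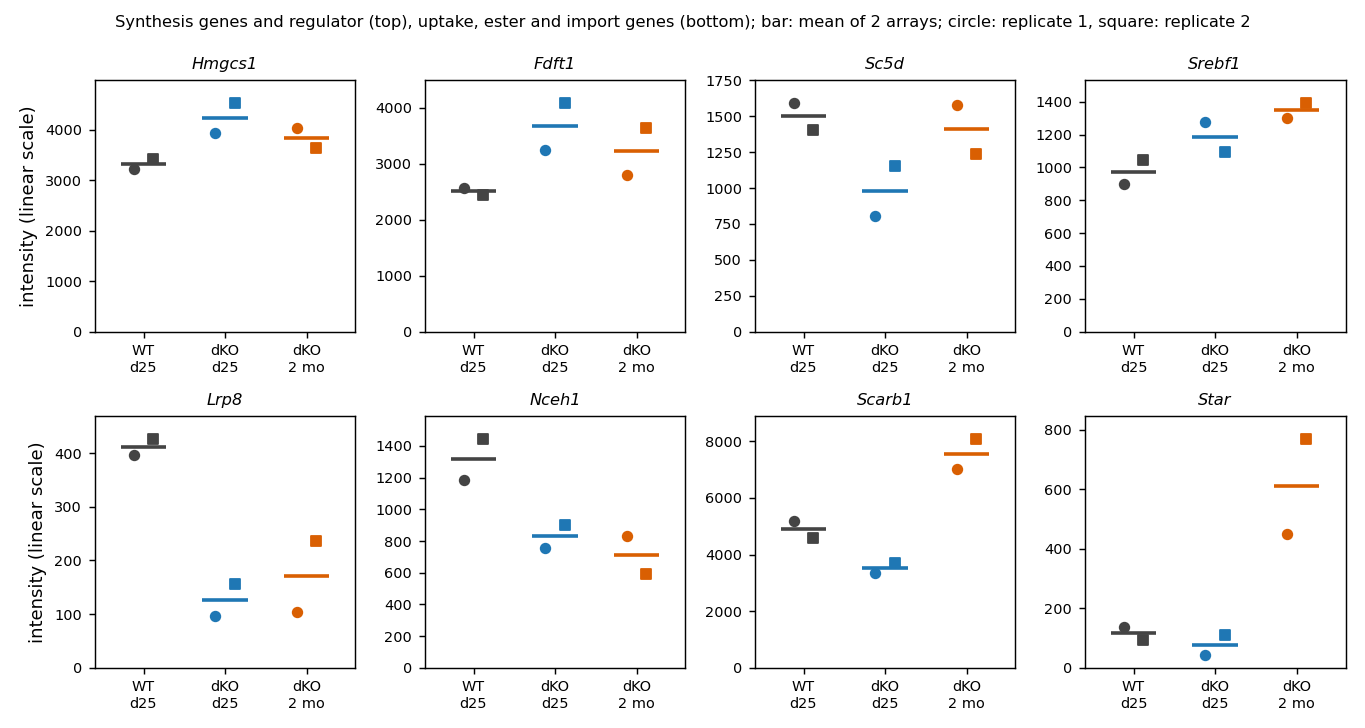
Intensity on a linear scale from 0 of 3 enzymes of synthesis and Srebf1 (top) and of Lrp8, Nceh1, Scarb1 and Star (bottom); points are arrays (circle replicate 1, square replicate 2) and bars the mean of 2 arrays. Lrp8 and Nceh1 lie below wild type on all dKO arrays, and Scarb1 and Star are highest at 2 months.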

How the data were processed

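Biotin-labelled RNA of 6 samples was hybridised to 1 Affymetrix array each, per the labels. The authors deposited intensity values per probe set on a linear scale, as whole numbers, for which the submitters' processing notes name affy and RMA; versions and genome build are not given in the sources used here. RMA draws the arrays to 1 distribution (medians 73 to 74), so a shift shared by most genes cannot show.

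Of 45101 probe sets, 64 controls were left out. Values were taken as log2(value + 1), which understates differences of dim genes. Each gene was read from its brightest probe set over all arrays among those with 1 symbol in the platform annotation (34945; 932 had several symbols and 9160 none); 18 cholesterol genes had more than 1, and of their 33 other probe sets 24, 24 and 23 had the same sign in the 3 comparisons. All 28 measured members matched a RefSeq gene. One limma 3.58.1 fit (R 4.3.3) of all 6 arrays with a mean per group gave 3 two-sided contrasts, adjusted by Benjamini-Hochberg over 45037 probe sets with a threshold of 0.05. The fit was tested on simulated data. Probe sets at an unadjusted p under 0.05 numbered 3668, 2514 and 5900. The number of arrays limits the precision: an exact permutation test of 2 against 2 cannot give a p below 0.333.

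The members, lists and rules were chosen with earlier results of these data known. Values on every array were given for members at an unadjusted p under 0.05 and for those that open a role, with others by range; arrays of Idi1, Tm7sf2, Msmo1, Nsdhl, Hsd17b7, Dhcr7, Srebf2, Scap, Insig1, Npc2, Sqle and a second Lss probe set were also printed, chosen after their values were seen. The further sterol list was given as counts with the 4 of smallest p per comparison, and the fatty acid list with 2. Same-numbered arrays did not deviate together (r = -0.159, -0.208 and 0.0569 between groups), so replicate numbers were not taken as pairs. Alternatives were another pseudocount, quantile normalization repeated, arrays centred, dim probe sets left out, another prior, array weights, fits of 4 arrays, other choices of probe set, a replicate block and leaving out each array.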

Additional observations from a re-analysis of the deposited data

How the results depend on the processing

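The count of cholesterol genes past the adjusted p was 0 in each comparison under every alternative run, and each member at an unadjusted p under 0.05 kept the sign of that difference under all of them. The smallest adjusted p of a member over the alternatives was 0.238 to 0.870 at day 25, 0.125 to 0.894 between the dKO ages and 0.0834 to 0.735 for 2 months against wild type. Leaving out 1 array at a time moved the list medians most: the day 25 median of synthesis ranged from -0.067 to 0.2578 and that of uptake and efflux from -0.0194 to 0.2001, while the uptake and efflux median ranged from -0.0266 to 0.3084 between the dKO ages and from 0.0319 to 0.3292 for 2 months against wild type. The cause was not tested beyond the array left out. Unadjusted calls for 2 months against wild type were 1 higher and 1 lower without wild-type replicate 1, and 6 and 0 without wild-type replicate 2; between the dKO ages they were 6 and 2 without dKO 2-month replicate 2. With probe sets averaged per gene the day 25 calls were 1 and 0, and with cross-hybridizing probe sets left out the calls were 1 and 1, 1 and 1, and 5 and 1 in the 3 comparisons. With the replicate block 0 genes passed the adjusted p, the unadjusted calls were 2, 1 and 3 higher and 0 lower in the 3 comparisons, and the medians were as without it (0.0365 for synthesis at day 25). A block with the wild-type numbers exchanged, chosen after seeing the data, gave 2, 1 and 5 higher and 0 lower. Dim probe sets, such as that of Nr1h3, limit what the arrays can show, and Nr1h3 was lost to the filter on dim probe sets. The synthesis median minus that of uptake and efflux also turned sign at day 25 with probe sets averaged (0.04) or cross-hybridizing ones left out (0.03), and for 2 months against wild type with dim probe sets left out (-0.10).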

Other observations

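Fatty acid genes that SREBP1 is known to drive were read from a list of 11, all measured. At day 25 their median log2 difference between dKO and wild type was -0.23, with 2 higher and 9 lower means and 0 genes at an unadjusted p under 0.05 by limma, beside 4.89% higher and 3.44% lower of all genes. Between the dKO ages the median was 0.66, with 5 genes higher and 0 lower at that p, beside 3.73% and 2.91% of all genes. For 2 months against wild type it was 0.41, with 1 higher and 0 lower, beside 9.54% and 5.38% of all genes. By limma 0 passed the adjusted p in any comparison. Fasn, the fatty acid synthase, was 1025 and 1141 in wild type, 788 and 1058 in day 25 dKO and 1409 and 1469 at 2 months, and its 2-month arrays lay above all others. The age difference was 0.66 ± 0.17 (SE), adjusted p = 0.712 by limma. Fads1, a desaturase of long fatty acids, was 1635 and 1456, then 1142 and 1527, then 1967 and 2083, an age difference of 0.62 ± 0.17 (SE). Me1, which supplies NADPH, was 1137 and 1788, then 2191 and 1975, then 4222 and 2688, a difference of 1.24 ± 0.31 (SE) between 2 months and wild type, with its highest value on the 2-month array that stood apart from the rest. Acaca, the acetyl-CoA carboxylase, was 612 and 623, then 544 and 517, then 567 and 559, lower by -0.22 ± 0.09 (SE) in dKO at day 25 with an unadjusted p of 0.0613. Scd1, the stearoyl-CoA desaturase, was 148 and 158, then 61 and 109, then 395 and 161, lower by -0.90 ± 0.50 (SE) in dKO at day 25 with an unadjusted p of 0.135.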
